A study of Homo sapiens with 74 samples.

Results

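The FKBP immunophilins measured here were 10 genes, chosen by symbol from the table of RNA counts: FKBP1A, FKBP1B, FKBP2, FKBP3, FKBP4, FKBP5, FKBP8, FKBP9, FKBP10 and FKBP14. They are 10 of the 39037 genes in that table, and all 10 passed the filter on low counts that left 17740 genes for testing. FKBP1A stood apart from the other 9. Its RNA was 2.94-fold higher in cells transfected with DamV133A than in cells transfected with m6A-Tracer, and 2.10-fold higher with DamV133A-LMNB1. None of the other 9 passed the test in either comparison. Few genes did, 22 and 41 of the 17740 in these comparisons, and some other fits called more members.

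FKBP proteins are peptidyl-prolyl isomerases, which turn the bond before a proline in a protein chain. FKBP12, the product of FKBP1A, binds the drugs FK506 and rapamycin, and the resulting complexes inhibit calcineurin and mTOR. It also binds TGF-beta type I receptors and calcium release channels. Larger members serve elsewhere: FKBP4 and FKBP5 are HSP90 cochaperones of steroid receptors, FKBP8 sits at mitochondria, and FKBP2, FKBP9, FKBP10 and FKBP14 work in the endoplasmic reticulum. A mutated FKBP12 is used as a destabilisation domain: a protein fused to it is degraded unless the ligand Shield-1 is added.

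The cells were HEK293T, a human embryonic kidney line, and the study maps contacts between the genome and the nuclear lamina with DamID. In DamID the bacterial adenine methyltransferase Dam, free or fused to lamin B1 (LMNB1), marks GATC sites near it, and DpnI cuts the marked sites. DamV133A is a Dam variant with 1 named substitution, and m6A-Tracer is a fluorescent reporter protein that binds methylated GATC sites. The series held 74 samples, of which 8 were poly(A) RNA libraries, 4 bulk DamID libraries, 8 libraries that set Dam variants side by side and 54 single cells.

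The RNA libraries fell into 4 groups of 2: DamV133A, DamV133A-LMNB1, m6A-Tracer and untreated. Transfection was transient, with FuGene HD. The labels give 1 treatment text to all samples, with 1 mM Shield-1 for 20 h, the untreated group included. The sources used here do not say which RNA groups received Shield-1 or which plasmids carry the destabilisation domain. In counts per gene, RNA from such a domain and RNA from the native FKBP1A gene cannot be told apart. Nothing in the labels says that the 2 libraries of a group came from separate cultures, so p-values measure only the spread between these libraries, which may be technical.

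RNA libraries held 39690886 to 51455298 estimated counts, of which 0.803% to 1.26% came from mitochondrial genes. All 8 HEK293 markers were at 1 CPM or more in every library (CPM, counts scaled to a library of fixed size), and 7 of 10 markers of other cell types stayed under 1 CPM. Of the other 3, COL1A1 was at 24.3 to 28.9 CPM. LMNB1 checked the labels. It was at 2548 and 2056 CPM with DamV133A-LMNB1, 250.8 and 257 with m6A-Tracer and 249.6 and 253 with DamV133A. In the libraries labelled untreated, which received no LMNB1 plasmid by their label, it was at 767 and 768 CPM. That is 3.02-fold above m6A-Tracer (edgeR adjusted p = 1.91e-04). The cause of this difference was not tested, and untreated is used here as a label only. The summed level of the HEK293 markers also moved with this group, at 1393 to 1428 CPM (before TMM scaling) in untreated libraries against 1065 to 1144 CPM in the other 6. The part of either difference in the comparisons with the untreated libraries was not tested. The 2 DamV133A-LMNB1 libraries differed from each other most, by a chi-square of 41.2 per degree of freedom over genes, against 2.97 to 4.32 in the other 3 groups.

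Dam marks only GATC, so a window without a GATC holds no site for it. The DpnI fragment that spans such a window can still be counted. Of 35116 windows of the 250 bases before a gene start in RefSeq (GRCh38.p14), 35.8% held a GATC, a motif that reads the same on both strands. Windows were found for 6 of the members, 11 windows in all, and 4 windows of 3 genes held it (FKBP3, FKBP5 and FKBP9). The windows shown are those of the member that differed most in RNA, of a member that passed no RNA test and of the member that was lower in all 3 comparisons with the libraries labelled untreated. They read 5′ to 3′ on the strand of the gene, in lower case with each GATC in capitals. FKBP1A, at chr20:1393055-1393304 on the minus strand, has none. FKBP5, at chr6:35728584-35728833 on the minus strand, has 2, and FKBP9, at chr7:32957190-32957439 on the plus strand, has 1.
FKBP1A: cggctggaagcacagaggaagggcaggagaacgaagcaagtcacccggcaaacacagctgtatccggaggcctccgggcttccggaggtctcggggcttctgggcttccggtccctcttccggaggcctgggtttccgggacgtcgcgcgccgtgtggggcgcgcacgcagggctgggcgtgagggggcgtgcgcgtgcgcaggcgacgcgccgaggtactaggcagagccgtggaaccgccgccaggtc
FKBP5: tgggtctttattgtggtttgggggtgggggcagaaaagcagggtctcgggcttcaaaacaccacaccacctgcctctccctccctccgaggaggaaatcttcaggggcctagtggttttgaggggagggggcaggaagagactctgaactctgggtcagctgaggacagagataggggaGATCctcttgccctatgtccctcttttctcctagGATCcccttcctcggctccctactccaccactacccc
FKBP9: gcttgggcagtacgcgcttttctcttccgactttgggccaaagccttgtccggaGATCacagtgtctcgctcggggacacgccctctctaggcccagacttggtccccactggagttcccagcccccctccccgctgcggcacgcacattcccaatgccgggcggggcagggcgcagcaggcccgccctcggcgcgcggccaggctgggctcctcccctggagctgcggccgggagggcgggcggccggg

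FKBP1A (ENSG00000088832), the cytosolic FKBP12 gene, ordered the 4 groups without overlap. Its level, in CPM after TMM scaling, was 853 and 844 in the DamV133A libraries and 626 and 584 in the DamV133A-LMNB1 libraries. It was 359 and 356 in the untreated libraries and 291 and 285 in the m6A-Tracer libraries. Both Dam groups therefore lay above the m6A-Tracer libraries and the libraries labelled untreated, and each gap between groups was wider than the gap within any pair.

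Against m6A-Tracer, FKBP1A was higher by 1.56 on the log2 scale in DamV133A libraries (SE 0.05, edgeR quasi-likelihood test, Benjamini-Hochberg adjusted p = 1.84e-05), the smallest p of all 17740 genes. In DamV133A-LMNB1 libraries the difference from m6A-Tracer was 1.07 (SE 0.05, adjusted p = 1.67e-04), second only to LMNB1. When those 2 groups were fitted alone the call was lost, at adjusted p = 0.0649, with values over all alternatives from 1.5e-57 to that one.

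Against the untreated libraries, FKBP1A was higher by 1.25 with DamV133A (SE 0.05, edgeR adjusted p = 3.39e-05) and by 0.76 with DamV133A-LMNB1 (SE 0.05, adjusted p = 2.13e-04). With m6A-Tracer it was 1.24-fold lower (log2 fold change -0.31, SE 0.05, adjusted p = 0.00735). Between the Dam groups it was 1.40-fold lower with the LMNB1 fusion (log2 fold change -0.49, SE 0.05, adjusted p = 0.018). This last call was lost in 8 of 15 alternatives, with adjusted p up to 0.163, and the m6A-Tracer call in 4 of 15, with adjusted p up to 0.0892. The directions held in every alternative run for FKBP1A.

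**Figure D1:**
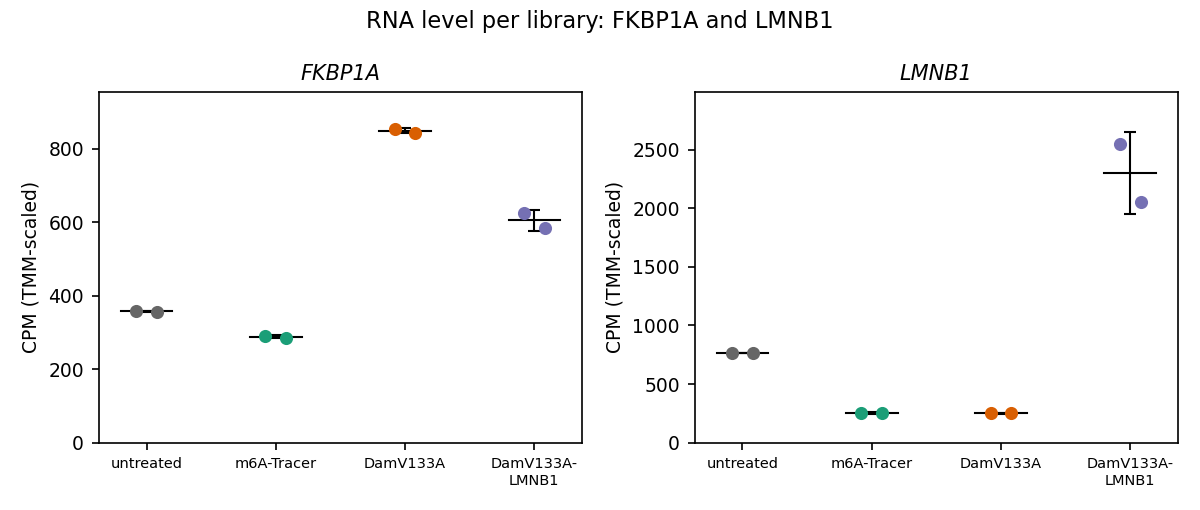
RNA level (y axis, TMM-scaled CPM from 0) of FKBP1A and LMNB1 in the 8 libraries by transfection group. Points are libraries, horizontal lines means and bars SD (n = 2); FKBP1A lies at 584 to 853 in both Dam groups and at 285 to 359 in the other libraries, while LMNB1 is highest with DamV133A-LMNB1.

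The calls of the other 9 members came from comparisons with the untreated libraries and between the Dam groups. The counts given here are over all 10 members, FKBP1A included. With DamV133A against untreated, 1 member (FKBP1A) was higher and 6 were lower, where 13.6% of all tested genes were called higher and 13.1% lower. With DamV133A-LMNB1 against untreated, 1 was higher (FKBP1A) and 1 lower (FKBP9), beside 11.4% and 7.56% of all genes. With m6A-Tracer against untreated, 0 were higher and 3 lower (FKBP1A, FKBP9 and FKBP10), beside 7.62% and 4.67% of all genes.

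With DamV133A-LMNB1 against DamV133A, 4 were higher and 1 (FKBP1A) lower, beside 12.7% and 7.55% of all genes. Only FKBP1A was called against m6A-Tracer, higher with DamV133A, where 0.0507% of genes were higher and 0.0733% lower, and higher with DamV133A-LMNB1, where 0.0564% were higher and 0.175% lower. At an unadjusted p under 0.05, 1 member passed in the first of these and 5 in the second, and DESeq2 called 1 and 3. The median log2 fold change of the 10 members was -0.30 with DamV133A against untreated, beside 0.01 over all tested genes. It was 0.24 with DamV133A-LMNB1 against DamV133A, beside -0.02. These comparisons share libraries and are not independent.

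The number of members called moved with the libraries in the fit, as did the number of all genes called, and the cause was not tested. Between DamV133A-LMNB1 and DamV133A, all 5 member calls were lost in 8 of 15 alternatives: without either untreated, m6A-Tracer or DamV133A library, without both untreated libraries, and with the 2 groups alone. In each of these fits only 1 gene was called in all, where 3598 were called as reported. Without both DamV133A-LMNB1 libraries, an alternative chosen after seeing the data, 10 members were called with DamV133A against untreated, 8 with m6A-Tracer against untreated and 5 with DamV133A against m6A-Tracer. The genes called in all then numbered 8743, 6934 and 2115, in place of 4730, 2181 and 22.

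**Figure D2:**
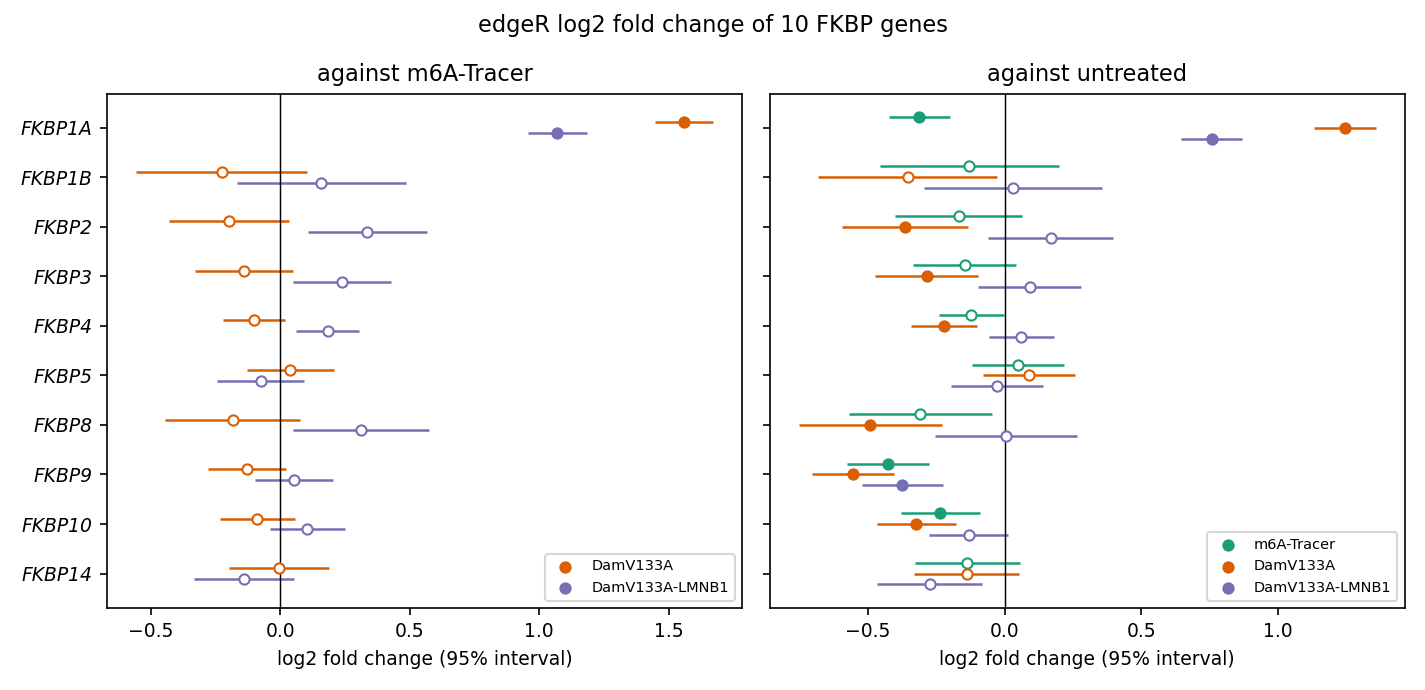
edgeR log2 fold change (x axis) with its 95% interval for the 10 genes, against m6A-Tracer (left) and against untreated (right), by transfection group. Filled points passed an adjusted p of 0.05 and open points did not; FKBP1A at 1.56 and 1.07 is the only filled gene on the left.

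FKBP1B, which encodes FKBP12.6, a close relative of FKBP12 that binds the ryanodine receptor, was at 10.4 and 10.9 CPM in untreated libraries, 10.5 and 9.01 with m6A-Tracer, 8.61 and 8.09 with DamV133A and 9.44 and 12.4 with DamV133A-LMNB1. Its DamV133A libraries were below the other 6. Its log2 fold change against m6A-Tracer was -0.23 with DamV133A (95% interval -0.56 to 0.10) and 0.16 with DamV133A-LMNB1 (-0.17 to 0.49), and no comparison passed the test.

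FKBP4, the HSP90 cochaperone FKBP52, was at 443 and 431 CPM in untreated libraries, 403 and 399.7 with m6A-Tracer, 375 and 373 with DamV133A and 437 and 475 with DamV133A-LMNB1. The DamV133A libraries were again below the other 6. FKBP4 fell by 0.22 on the log2 scale with DamV133A against untreated (SE 0.05, edgeR adjusted p = 0.017) and was higher by 0.28 with the LMNB1 fusion than with DamV133A (SE 0.05, adjusted p = 0.0196). The call against untreated was lost in 5 of 15 alternatives, with adjusted p up to 0.127, and the log2 fold change was -0.13 under library totals.

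FKBP5, or FKBP51, is the HSP90 cochaperone whose gene is induced by glucocorticoids. It was at 95.4 and 96.2 CPM in untreated libraries, 97.8 and 100.2 with m6A-Tracer, 99.2 and 104 with DamV133A and 100.6 and 87.2 with DamV133A-LMNB1. It passed the test in none of the 6 comparisons, and its groups overlapped in 4 of them. The 95% interval against m6A-Tracer ran from -0.13 to 0.21 with DamV133A and from -0.24 to 0.09 with DamV133A-LMNB1.

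FKBP8, the membrane-anchored FKBP38 of mitochondria, a partner of BCL2, showed the widest gap within a pair among the members. It was at 291 and 291 CPM in untreated libraries, 237 and 232 with m6A-Tracer, 212 and 202 with DamV133A and 250.5 and 333 with DamV133A-LMNB1. FKBP8 fell by 0.49 with DamV133A against untreated (SE 0.11, edgeR adjusted p = 0.0163), a call lost in 4 of 15 alternatives, with adjusted p up to 0.117. It was higher by 0.50 with DamV133A-LMNB1 than with DamV133A (SE 0.11, adjusted p = 0.027). Its log2 fold change with DamV133A-LMNB1 against untreated was 0.00 (95% interval -0.26 to 0.27). That value was 0.21 without DamV133A-LMNB1 replicate 1 and -0.22 without replicate 2.

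FKBP3, the nuclear FKBP25, was at 141 and 140.1 CPM in untreated libraries, 131 and 123 with m6A-Tracer, 117 and 114 with DamV133A and 137 and 163 with DamV133A-LMNB1. Like FKBP4 and FKBP8, it was lowest in both DamV133A libraries. It fell by 0.29 with DamV133A against untreated (SE 0.08, edgeR adjusted p = 0.036) and was higher by 0.38 with DamV133A-LMNB1 than with DamV133A (SE 0.08, adjusted p = 0.0238). The call against untreated was lost in 8 of 15 alternatives, with adjusted p up to 0.182. Among them were library totals (adjusted p = 0.0876) and the replicate block (adjusted p = 0.0594).

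The 4 members of the endoplasmic reticulum did not share 1 pattern. FKBP9 was at 51.0 and 52.2 CPM in untreated libraries, 38.3 and 38.4 with m6A-Tracer, 34.3 and 35.9 with DamV133A and 41.6 and 37.9 with DamV133A-LMNB1. Both untreated libraries lay above all 6 transfected ones. FKBP9 was the only member called lower in all 3 transfected groups against untreated. It fell by 0.43 with m6A-Tracer (SE 0.06, edgeR adjusted p = 0.00688), by 0.56 with DamV133A (SE 0.07, adjusted p = 0.00125) and by 0.37 with DamV133A-LMNB1 (SE 0.06, adjusted p = 0.00837). The m6A-Tracer call was lost in 4 of 15 alternatives, with adjusted p up to 0.0775, and the DamV133A-LMNB1 call in 3 of 14, with adjusted p up to 0.0919.

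FKBP10, or FKBP65, a chaperone of procollagen, was at 325 and 313 CPM in untreated libraries and 272 and 269 with m6A-Tracer. With DamV133A it was at 260.2 and 249 CPM and with DamV133A-LMNB1 at 274 and 307. Here too the untreated libraries lay above the other 6. FKBP10 fell by 0.32 with DamV133A (SE 0.06, edgeR adjusted p = 0.00845) and by 0.24 with m6A-Tracer (SE 0.06, adjusted p = 0.0471). The m6A-Tracer call was lost in 9 of 15 alternatives, with adjusted p up to 0.258. Among them were DESeq2 size factors (adjusted p = 0.0542), library totals (0.0813) and the replicate block (0.0842), and leaving out any untreated, m6A-Tracer or DamV133A library. The DamV133A call was lost in 3 of 15, with adjusted p up to 0.0873.

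FKBP2, or FKBP13, was at 41.1 and 39.6 CPM in untreated libraries, 35.4 and 36.4 with m6A-Tracer, 32.1 and 30.5 with DamV133A and 40.3 and 50.3 with DamV133A-LMNB1. It was lowest in both DamV133A libraries. FKBP2 fell by 0.37 with DamV133A against untreated (SE 0.10, edgeR adjusted p = 0.0311) and was higher by 0.53 with DamV133A-LMNB1 than with DamV133A (SE 0.10, adjusted p = 0.02). The call against untreated was lost in 7 of 15 alternatives, with adjusted p up to 0.177.

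FKBP14, or FKBP22, which acts on procollagen in the endoplasmic reticulum, was at 36.0 and 38.5 CPM in untreated libraries, 33.1 and 34.6 with m6A-Tracer, 33.9 and 33.7 with DamV133A and 33.2 and 28.4 with DamV133A-LMNB1. It passed the test in no comparison, the nearest being DamV133A-LMNB1 against untreated at -0.27 (95% interval -0.47 to -0.08, edgeR adjusted p = 0.0545).

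**Figure D3:**
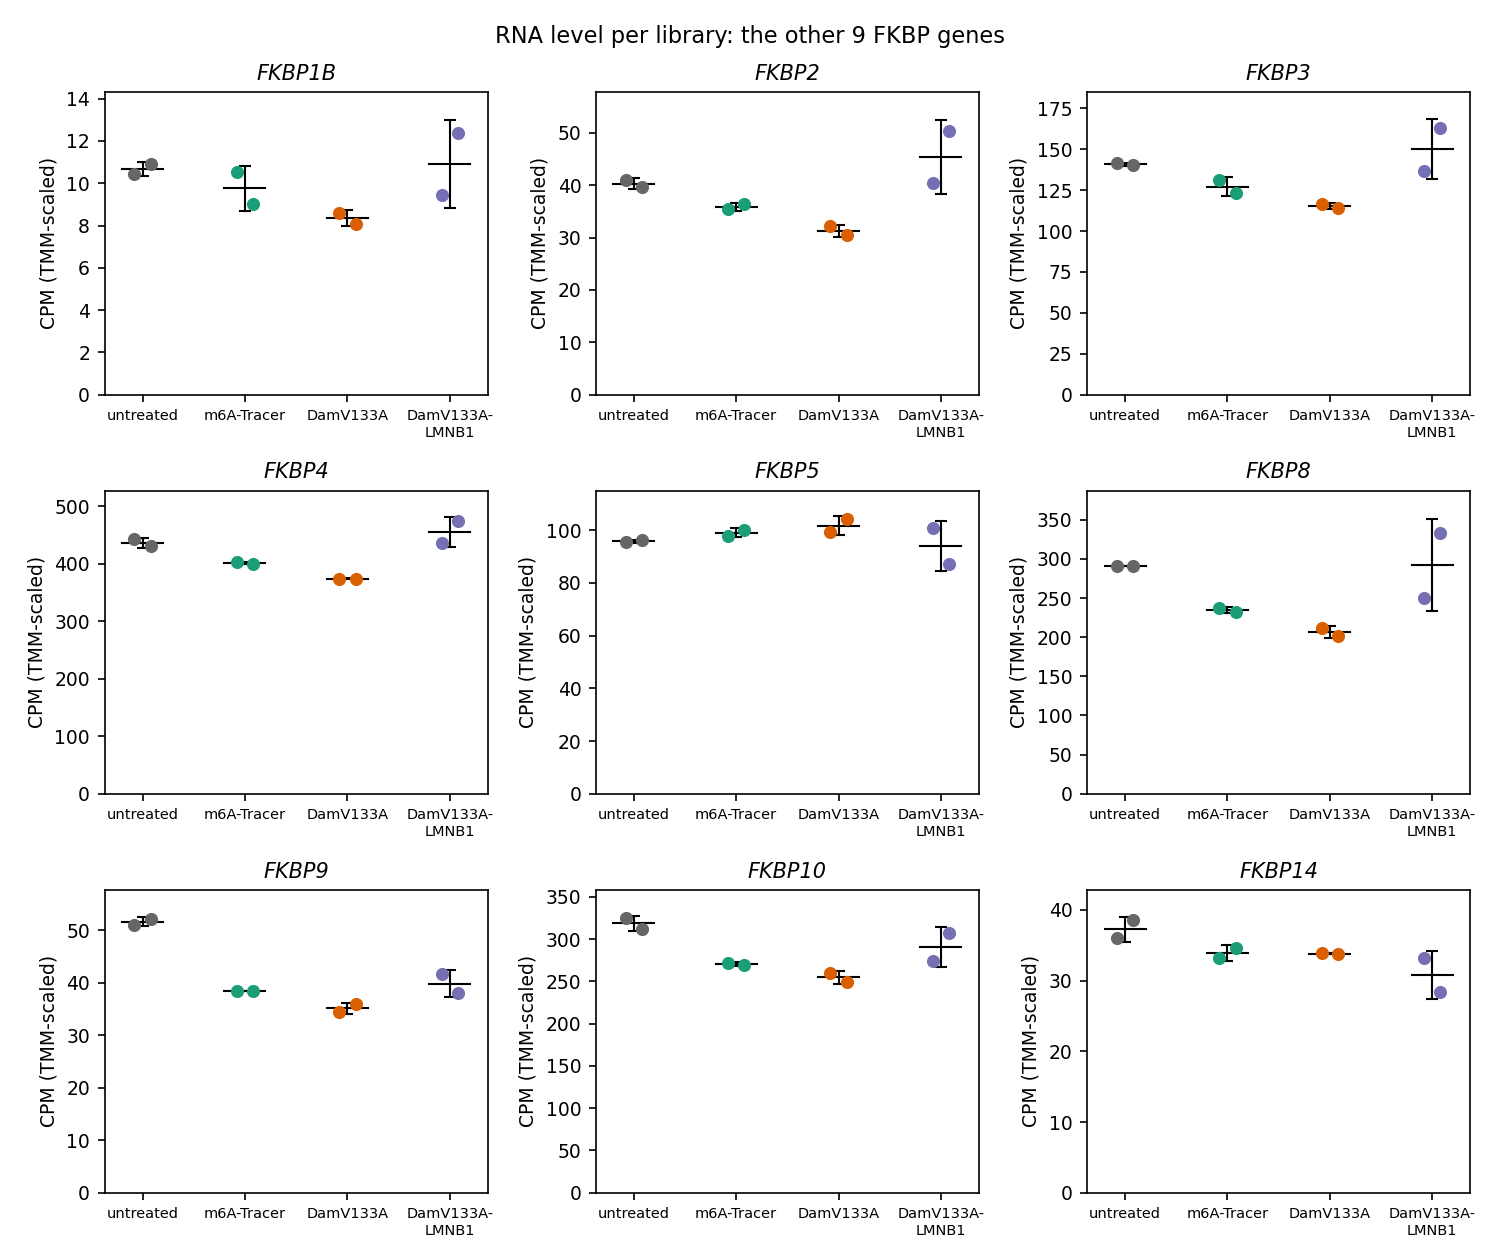
RNA level (y axes, TMM-scaled CPM from 0) of the other 9 members in the 8 libraries by transfection group. Points are libraries, horizontal lines means and bars SD (n = 2); FKBP8 spans 250.5 to 333 within the DamV133A-LMNB1 pair, and FKBP9 is above 50.9 only in the untreated libraries.

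Other genes with an FKBP domain, or named with the family, were 7 symbols in 10 table entries, of which 6 entries passed the filter. FKBP6 and AIPL1 did not pass it. With edgeR 0 were called against m6A-Tracer in either Dam group. At an unadjusted p under 0.05, 0 passed with DamV133A and 3 with DamV133A-LMNB1, and DESeq2 called 0 and 1. FKBPL, a divergent member, was listed under 4 gene identifiers, and the 2 that were tested held nearly equal counts, so its reads were split between copies and its values are uncertain. Those 2 entries were higher than in untreated libraries in all 3 transfected groups, by 0.61 with DamV133A, 0.64 with m6A-Tracer and 0.83 with DamV133A-LMNB1. FKBP11 was higher by 0.51 with DamV133A against untreated (edgeR adjusted p = 0.0484) and FKBP7 fell by 0.25 (adjusted p = 0.0447). With DamV133A-LMNB1 FKBP11 was lower by 0.61 than with DamV133A (edgeR adjusted p = 0.0358). Its log2 fold change with DamV133A-LMNB1 against untreated was -0.10, uncalled. FKBP15 was called in no comparison.

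Genes that work with the members were counted in lists. With DamV133A against untreated, edgeR called 13.6% of all tested genes higher and 13.1% lower. The list counts for that comparison are to be read beside these shares. Against m6A-Tracer it called 22 genes in all with DamV133A and 41 with DamV133A-LMNB1. For calcineurin and NFAT (12 tested) and mTORC1 (8 tested), the targets of drug-bound FKBP12, edgeR called 0 genes in either Dam group against m6A-Tracer. At an unadjusted p under 0.05 with DamV133A-LMNB1, 5 calcineurin and NFAT genes and 7 mTORC1 genes passed, and DESeq2 called 0 and 4. With DamV133A, 2 and 1 passed unadjusted and DESeq2 called 0. With DamV133A against untreated, 3 calcineurin and NFAT genes were higher and 1 lower. NFATC3 was higher by 0.36 (edgeR adjusted p = 0.00635) and NFATC4 fell by 0.43 (adjusted p = 0.00272). Of mTORC1, DEPTOR, an inhibitor of mTOR, fell by 0.69 (adjusted p = 0.00782) and EIF4EBP1, a translation repressor that mTORC1 phosphorylates, fell by 0.61 (adjusted p = 0.00469). The other 6 genes of the mTORC1 list were not called. With m6A-Tracer against untreated, NFATC3 was also higher (0.25) and DEPTOR also lower (-0.58), while NFATC4 and EIF4EBP1 were not called.

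Of 7 TGF-beta family type I receptors, 1 was lower with DamV133A against untreated, ACVR1B, by -0.29 on the log2 scale (edgeR adjusted p = 0.0155). Of 11 tested entries for TGF-beta and BMP target genes, 1 was higher (SKIL, 0.49, adjusted p = 0.00284) and 1 lower (TGIF1, -0.38, adjusted p = 0.0419). Of 6 intracellular calcium release channels, edgeR called 0 there (2 at an unadjusted p under 0.05, DESeq2 called 1). With DamV133A-LMNB1 against untreated 2 were lower, ITPR3 at -0.63 and ITPR2 at -0.62. Of all tested genes, 11.4% were called higher and 7.56% lower in that comparison. Of the 11 target gene entries, 3 were higher with DamV133A-LMNB1 against untreated and 0 lower. These were ID1 (0.68) and 2 entries of ID3 with nearly equal levels (0.84 each). ACVR1B was lower there (-0.25). Between the Dam groups, ID2 (0.37) and both ID3 entries (0.57) were higher with the fusion, and SKIL (-0.35) and TGFBR1 (-0.31) lower. In that comparison 12.7% of all tested genes were called higher and 7.55% lower. With m6A-Tracer against untreated SKIL was also higher (0.41), while ACVR1B and TGIF1 were not called.

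HSP90 and its cochaperones, the partners of FKBP4 and FKBP5, gave 24 tested entries. With DamV133A against untreated 5 were higher and 2 lower, where 13.6% of all tested genes were called higher and 13.1% lower. CHORDC1, an HSP90 cochaperone, was higher by 0.38 (edgeR adjusted p = 0.00257) and HSPH1, an HSP70 exchange factor, by 0.31 (adjusted p = 0.00729). Of 10 glucocorticoid receptor target genes, the class to which FKBP5 belongs, 1 was higher and 3 lower. TSC22D3 fell by 0.84 (adjusted p = 1.85e-04) and KLF9 by 0.44 (adjusted p = 0.00421), and PER1 was higher by 0.29 (adjusted p = 0.00777). With m6A-Tracer against untreated, TSC22D3, KLF9 and PER1 were called in the same directions, at -0.71, -0.42 and 0.26. CHORDC1 (0.24) and HSPH1 (0.22) were also called higher there. Of 4 tested steroid receptors, edgeR called 0 in any comparison (at most 2 at an unadjusted p under 0.05), and DESeq2 called 1, between the Dam groups.

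Collagen folding genes of the endoplasmic reticulum, the class in which FKBP10 and FKBP14 act, were counted as a list of 14. With DamV133A against untreated 10 of 14 fell and 0 rose, with a median log2 fold change of -0.24, beside 0.01 for all tested genes. With m6A-Tracer 5 of 14 fell, and with DamV133A-LMNB1 4 of 14. Of all tested genes, 13.1% were called lower with DamV133A, 4.67% with m6A-Tracer and 7.56% with DamV133A-LMNB1. P4HA1, a prolyl hydroxylase subunit, fell by 0.84 with DamV133A (edgeR adjusted p = 9.26e-05), by 0.72 with m6A-Tracer and by 0.60 with DamV133A-LMNB1. PLOD2, a lysyl hydroxylase, fell by 0.64, 0.49 and 0.55 in the same order, and CRTAP, part of the prolyl 3-hydroxylase complex, by 0.50, 0.45 and 0.31. Against m6A-Tracer edgeR called 0 of 14 in either Dam group. With DamV133A 4 passed an unadjusted p under 0.05 and DESeq2 called 0, and with DamV133A-LMNB1 6 passed and DESeq2 called 1.

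Of 8 tested mitochondrial partners of FKBP8, 3 fell with DamV133A against untreated: BNIP3 by 0.95 (edgeR adjusted p = 1.45e-04), BNIP3L by 0.77 (adjusted p = 2.32e-04), both mitophagy receptors, and PHB2 by 0.28 (adjusted p = 0.0228). BNIP3 and BNIP3L also fell with m6A-Tracer against untreated, by 0.73 and 0.53, and PHB2 was not called there. Cyclophilins and parvulins, the other prolyl isomerase families, gave 3 higher and 5 lower of 19 with DamV133A against untreated. Of all tested genes, 13.6% were called higher and 13.1% lower in that comparison. The largest called changes were PPIL6, lower by 0.74 (edgeR adjusted p = 0.0139), and NKTR, higher by 0.66 (adjusted p = 0.0192). PPIL6 was at a low level, 2.90 CPM with DamV133A and 4.81 untreated. PPIA, the gene of cyclophilin A, fell by 0.44 (adjusted p = 0.00644) and PPIB, cyclophilin B of the endoplasmic reticulum, by 0.44 (adjusted p = 0.00656). PPIB is also in the list of collagen folding genes. With m6A-Tracer against untreated PPIA also fell, by 0.31, and PPIB, PPIL6 and NKTR were not called. Against m6A-Tracer edgeR called 0 of these 19, where 2 passed an unadjusted p under 0.05 with DamV133A and 11 with DamV133A-LMNB1, and DESeq2 called 0 and 7. Of 8 tested interferon response genes, DDX58, the RIG-I sensor, was the 1 called, higher by 0.86 with DamV133A, 0.65 with DamV133A-LMNB1 and 0.53 with m6A-Tracer against untreated.

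The genes nearest to FKBP1A over the 8 libraries were taken by the root mean square difference of centred log2 CPM, which was 0.23 for SHH, 0.26 for LYPD5, 0.28 for UPB1 and 0.29 for ZNF540 and ZNF771. The FKBP1A profile itself had an SD of 0.61. SHH, LYPD5 and UPB1 were each under 1 CPM in their group means. ZNF771 averaged 60.9 CPM with DamV133A, 49.7 with DamV133A-LMNB1, 34.7 with m6A-Tracer and 30.6 untreated.

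In bulk DamID, counts in 100 kb bins (hg38) compared DamV133A-LMNB1 with DamV133A in 2 libraries each, 402171358 to 524019579 counts per library. A bin called higher lies in a lamina-associated domain (LAD) and a bin called lower in an inter-LAD (iLAD). Of 27944 tested bins, 35.2% were higher and 36.2% lower. The bins of 9 of the 10 members were called lower and 0 higher, with a median log2 fold change of -0.87 over members beside -0.06 over all bins.

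The bin of FKBP1A, on chromosome 20 from 1300001 to 1400000, had the lowest value of the members. It was at 34.3 and 23.7 CPM with DamV133A and 12.5 and 11.3 with the fusion, a log2 fold change of -1.28 (SE 0.27, edgeR adjusted p = 2.75e-04). Without DamV133A replicate 1 that value was -0.99 and the bin was not called. The other 8 called members ran from -1.01 for FKBP4 to -0.74 for FKBP8. FKBP3, on chromosome 14, was the exception: its bin was at 87.8 and 76.3 CPM with DamV133A and 82.0 and 94.7 with the fusion, which overlapped (log2 fold change 0.11, SE 0.15, adjusted p = 0.523). FKBP4, FKBP5 and FKBP9 extend over more than 1 bin and were given the bin that holds most of the gene. Without DamV133A replicate 2, 5 members were called in place of 9.

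Single cells were scored as in contact at a bin where observed fragments reached 1 time those expected from the bulk DamV133A libraries. A member's bin was in contact in a median of 6.67% of 15 batch 1 DamV133A-LMNB1 cells (range 0 to 13.3%) and 9.72% of 36 batch 2 DamV133A-tdTomato-LMNB1 cells (range 0 to 25.0%). The mean iLAD bin was at 14.3% and 17.2% in these groups, and the mean LAD bin at 59.8% and 62.3%. The 3 cells with DamV133A alone had a median of 66.7% over members, where the mean iLAD bin was at 48.5% and the mean LAD bin at 28.1%. Dam in these 3 cells is not fused to LMNB1, so the same score does not measure lamina contact there. In either LMNB1 group, member bins were thus seldom in contact, as a description without a test. Their medians stand beside means over iLAD and LAD bins, which are a different measure. In batch 2, FKBP9 (25.0%) and FKBP2 (19.4%) lay above the mean iLAD bin.

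FKBP9 was the member most often in contact in batch 2, in 9 of 36 cells (25.0%, exact Clopper-Pearson 95% interval 12.1 to 42.2%). FKBP10 was in contact in 0 of 15 batch 1 cells, which allows a share of up to 20.0% at a limit of 3 cells, and in 0 of 36 batch 2 cells, which allows up to 8.33%. The upper ends of the exact Clopper-Pearson intervals were wider, at 21.8% and 9.74%. FKBP3, uncalled in bulk, was in contact in 0 of 15 and 1 of 36 cells (2.78%, interval 0.0703 to 14.5%). FKBP1A was in contact in 2 of 15 (13.3%, interval 1.66 to 40.5%) and 4 of 36 cells (11.1%, interval 3.11 to 26.1%). Intervals and limits cover counting error only.

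**Figure D4:**
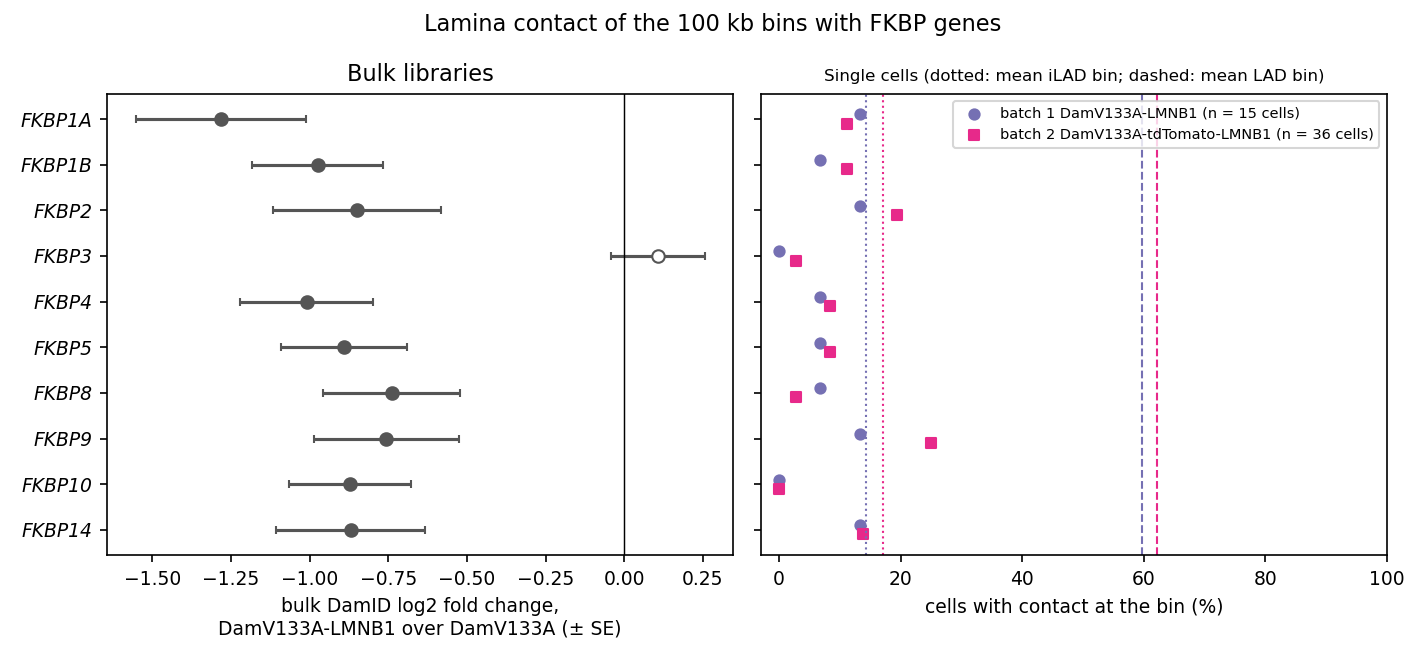
Left, bulk DamID log2 fold change (x axis, DamV133A-LMNB1 over DamV133A) of the 100 kb bin of each member with its SE; filled points passed an adjusted p of 0.05. Right, share of cells with contact at the same bins (x axis, %) in both LMNB1 groups, with the mean iLAD bin dotted and the mean LAD bin dashed; members lie at 0 to 25.0%, below both LAD means.

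The comparison of Dam variants gave counts per DpnI fragment in 8 libraries of 3162041 to 10666805 counts. The FKBP1A gene, on chromosome 20 from 1368978 to 1393054, is cut into 53 such fragments. They held 36 and 18 counts with DamV133A, 8 and 19 with DamV133A-LMNB1, 16 and 16 with wild-type Dam, and 149 and 4 with wild-type Dam fused to LMNB1. At most 5 of the 53 fragments were covered in any library, and the highest fragment took a median of 47.2% of the counts (range 37.6 to 100%). No single fragment exceeded 56 counts. The fragment over the FKBP1A promoter window held 0 counts in each of the 8 libraries. By counting error alone this allows up to 3 counts in each, a limit that leaves out the clumping of counts on few fragments. The fragments over the FKBP9 window also held 0, and those over the FKBP5 window given here at most 1. Differences there were not detectable at this depth.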

How the data were processed

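RNA, bulk DamID and single-cell libraries of HEK293T cells were used. The RNA values are estimated counts of genes that the authors deposited unrounded (GRCh38); they were rounded here. For DamID, the authors deposited whole-number counts per 100 kb bin and per DpnI fragment. Tools listed in the submitters' processing notes, with no role for each, are Salmon, limma, DESeq2, bedtools 2.28, SAMtools 1.9, Trimmomatic 0.39 and BWA 0.7.15-r1140, with build hg38.

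Samples were grouped by their labels. Tests used edgeR 4.0.16 (R 4.3.3, filterByExpr, TMM, glmQLFit, glmQLFTest), 1 fit of 4 groups for RNA and 1 of 2 for bulk bins, and Benjamini-Hochberg adjusted p under 0.05 as threshold over all tested features. Alternatives were DESeq2 1.42.0, its size factors, library totals, no filter, a replicate block, 2 groups alone and each library left out. Scripts were tested on simulated data. Python 3.11.15 with pandas 2.3.3, SciPy 1.17.1 and matplotlib 3.10.9 did the rest.

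Named were the 10 members, other FKBP genes (1 of that list is not reported here), LMNB1, up to 4 called genes per list and comparison with the largest fold change, and the 5 genes nearest to FKBP1A. The members and lists were chosen with earlier results of these data known. Levels were not compared between genes, as transcript lengths were not used. The protein sequences of the members were not used here.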

Additional observations from a re-analysis of the deposited data

How the results depend on the processing

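Each group had 2 RNA libraries, and the DamV133A-LMNB1 pair differed most. Leaving out each library gave 2 to 10 members called with DamV133A against untreated (7 as reported), 1 to 8 with DamV133A-LMNB1 against untreated (2), 0 to 8 with m6A-Tracer against untreated (3), 0 to 9 between the Dam groups (5), 1 to 5 with DamV133A against m6A-Tracer (1), 1 to 9 with DamV133A-LMNB1 against m6A-Tracer (1) and 5 to 9 in bulk bins (9). The genes called in all ran over the same RNA fits from 1389 to 8722, 522 to 8415, 308 to 6908, 1 to 8956, 1 to 2074 and 2 to 8378, in the same order. With the 2 groups alone, the counts were 9, 1, 7, 0, 5 and 0 in the order of the 6 RNA comparisons. Without both DamV133A-LMNB1 libraries, chosen after seeing the data, they were 10 with DamV133A and 8 with m6A-Tracer against untreated and 5 with DamV133A against m6A-Tracer. Without both untreated libraries, also chosen after seeing the data, 0 were called between the Dam groups. Library totals gave 4 with DamV133A against untreated. With DamV133A-LMNB1 against m6A-Tracer, no low-count filter gave 5 and DESeq2 gave 3. Causes were not tested.

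Library totals changed how all genes split: with DamV133A against untreated 3470 of 4889 called genes were higher, against 2408 of 4730 with TMM, and the median of all genes moved from 0.01 to 0.10. Between the Dam groups 1458 of 3821 were higher, against 2258 of 3598.

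These log2 fold changes changed sign: FKBP8 with DamV133A-LMNB1 against untreated (0.00 as reported) at -0.00118 with the replicate block and -0.00331 with 2 groups alone, FKBP14 with DamV133A against m6A-Tracer (-0.00335) at 0.022 with library totals, 0.00493 without both untreated libraries, 0.00421 without both DamV133A-LMNB1 libraries and 0.00424 with 2 groups alone, FKBP9 with DamV133A-LMNB1 against m6A-Tracer (0.05) at -0.00236 with library totals, and FKBP3 in bulk DamID (0.11) at -0.15 with library totals. Leaving out each library in turn, these log2 fold changes changed sign. FKBP1B ran from -0.18 to 0.23 and from -0.0457 to 0.37 with DamV133A-LMNB1 against untreated and against m6A-Tracer, FKBP5 from -0.12 to 0.0718 and from -0.16 to 0.0251. Against untreated, FKBP3 ran from -0.0391 to 0.22, FKBP4 from -0.000517 to 0.13 and FKBP8 from -0.22 to 0.21. FKBP14 with DamV133A against m6A-Tracer ran from -0.0363 to 0.0282, and FKBP3 in bulk DamID from -0.019 to 0.21.

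Replicate numbers carried no strong shared effect: deviations of same-numbered libraries correlated at -0.064 to 0.0228. With 2 libraries a group, these correlations cannot show whether the samples were paired. The replicate block gave 6, 2, 2, 5, 1 and 1 members called in the 6 RNA comparisons and 9 in bulk bins. Scoring bins at 2 times the expected fragments lowered the medians over member bins to 0, 0 and 1.39% in batch 1 DamV133A, batch 1 DamV133A-LMNB1 and batch 2 cells. Of 970 log2 fold changes under alternatives, 779 kept direction and side of the threshold, 93 lost the call, 79 gained one and 19 changed sign.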

Other observations

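Relative to the mean of the m6A-Tracer libraries, FKBP1A was higher by 565 and 556 CPM in the DamV133A libraries and by 337 and 296 CPM in the DamV133A-LMNB1 libraries, and LMNB1 was higher by 2293 and 1802 CPM in the latter pair. In the libraries labelled untreated, LMNB1 was higher than that mean by 512 and 514 CPM and FKBP1A by 70.9 and 68.3 CPM.

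Copies of FKBP1A elsewhere in the genome took few reads. The 3 listed copies, FKBP1C, FKBP1AP2 and FKBP1AP3, together held at most 0.0483% of the FKBP1A estimated counts in any library. FKBP1C was at 16.0 and 7.47 estimated counts with DamV133A and at 0 and 3.04 in the untreated libraries.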
